A study of Rattus norvegicus with 3 samples.

Results

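The genes described are 9 components of JAK-STAT signalling in the rat retina, chosen by gene symbol from 32883 genes measured in 3 libraries. They comprise the transcription factor genes Stat2, Stat3 and Stat5a, the kinase genes Jak2 and Jak3, and the feedback inhibitor genes Socs1, Socs2, Socs3 and Cish. Each symbol matched 1 row in every library, and all 9 passed the filter on low counts (at least 1 CPM, a count scaled to library size, in at least 1 library). Retinas came from Sprague-Dawley rats of postnatal day 60, and ribosomal RNA was depleted before sequencing. In the HIOP_GSK library, a drug labelled GSK was injected into the anterior chamber 24 h before the pressure was raised. The pressure in the eye was then held at 110 mmHg for 60 min, and the tissue was taken 12 h later. The HIOP library had the same raised pressure and the same 12 h of survival without the drug. The CTL library was labelled as untreated, while the treatment protocol describes a sham operation with a needle in the anterior chamber at 2.66 kPa. The sources used here do not give what GSK is, its dose or how many rats each library holds, and no eye injected with vehicle alone is among the libraries.

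Cytokines bind receptors that carry JAK kinases, which phosphorylate STAT proteins. Phosphorylated STATs pair, enter the nucleus and activate target genes. Among these targets are the SOCS genes and Cish, whose products block the receptor or the kinase, so their mRNA levels are commonly read as a trace of recent STAT activity. In the retina, STAT3 is known for its activation in Müller glia after injury and by cytokines of the interleukin-6 family.

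Deposited counts summed to 15132754 in HIOP_GSK, 17221510 in HIOP and 16090064 in CTL. With 1 library per group, no difference was tested across animals and no p-value is given. The intervals printed are 95% exact intervals, which cover counting error only. Rod markers dominated the marker lists, with summed levels of 18386 CPM in HIOP_GSK, 26040 CPM in HIOP and 26983 CPM in CTL over 7 of 7 genes. Neighbouring tissues also varied, as the 7 lens markers summed to 9840 CPM in HIOP_GSK, 2460 CPM in HIOP and 855 CPM in CTL, and the 4 markers of corneal and surface epithelium to 37.5, 5.90 and 182 CPM in the same order of libraries. The part of such tissue in the levels below was not tested.

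Windows from 250 bases before to 50 after the start site were read from RefSeq (build GRCr8) for 7 of the 9 genes, matched by symbol. Jak3 and Socs2 had no entry. The 9-base STAT site TTCNNNGAA, which reads the same on both strands, was found in Cish and Socs1. The interferon element core, GAAA followed by any 2 bases and GAAA again, searched on both strands, was found in Socs1. The windows of Cish and Socs1 are shown because they are the 2 of the 7 that held a match. Capitals mark the motif matches, and both sequences run 5′ to 3′ on the plus strand.
Cish, chr8:116850719-116851018: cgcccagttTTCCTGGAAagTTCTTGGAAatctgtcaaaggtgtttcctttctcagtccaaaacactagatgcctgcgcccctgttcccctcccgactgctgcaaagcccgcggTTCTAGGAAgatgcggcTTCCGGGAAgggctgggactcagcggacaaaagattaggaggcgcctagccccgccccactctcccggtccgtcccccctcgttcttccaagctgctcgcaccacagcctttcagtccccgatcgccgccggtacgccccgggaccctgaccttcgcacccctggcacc
Socs1, chr10:5389324-5389623: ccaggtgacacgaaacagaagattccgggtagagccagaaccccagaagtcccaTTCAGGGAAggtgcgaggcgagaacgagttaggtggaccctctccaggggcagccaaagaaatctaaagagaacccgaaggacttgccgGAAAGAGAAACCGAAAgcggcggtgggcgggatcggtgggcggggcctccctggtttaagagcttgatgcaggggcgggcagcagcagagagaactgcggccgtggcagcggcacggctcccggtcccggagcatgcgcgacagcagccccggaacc
The Cish window held 4 STAT sites, whose first bases lie at -241, -230, -136 and -119 from the start site and fall into 2 pairs. Of 33469 rat windows of the same length, 2970 (8.87%) held at least 1 such site and 2 held 4, one of which was Cish. The Socs1 window held 1 STAT site, at -196, and 2 overlapping interferon element cores at -107 and -101. That core was present in 1312 windows (3.92%). No match to either motif was found in the windows of Stat2, Stat3, Stat5a, Jak2 and Socs3. The start sites used for Socs3, Stat3 and Stat2 lie 1207, 154 and 65 bases inside their RefSeq gene records, so the full region before the outer end of these genes was not searched.

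**Figure D1:**
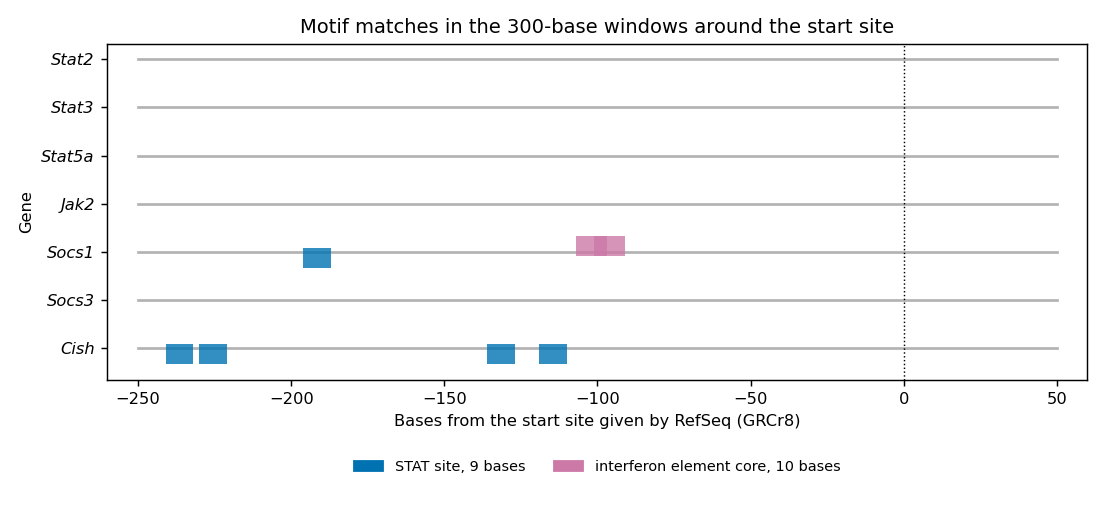
Positions of motif matches in the windows of 7 genes, with distance in bases from the RefSeq start site on the x axis and genes down the page. Blue bars are STAT sites and pink bars are interferon element cores; Cish has 4 STAT sites, Socs1 has 1 together with 2 overlapping cores, and the other 5 windows have none.

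The HIOP library was set against CTL to describe the injured retina at 12 h. All 9 genes had a higher level in HIOP than in CTL, and 7 of them were at least 2-fold higher, against 9.0% of the 15543 genes compared. None was at least 2-fold lower, against 8.04% of those genes. The median log2 ratio of the 9 was 1.64, where that of all genes compared was 0.0042. The 9 genes were chosen with earlier results of these data known, so their counts and medians here and below only describe these libraries. The ratios spanned a wide range, with the feedback inhibitors Socs3 and Cish at the top and the kinase gene Jak2 at the bottom.

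Socs3 encodes the inhibitor that binds gp130-type receptors and JAK kinases and limits STAT3 signalling. It had 1728 counts in HIOP and 16 in CTL, or 101 CPM in HIOP and 0.994 CPM in CTL. The scaled ratio was 102 (62.4 to 178), and 27 of the 15543 genes had a higher log2 ratio. By the deposited TPM, which is scaled per transcript length, Socs3 was at 133 in HIOP and 0.81 in CTL. It was thus the least abundant of the 9 genes per length in CTL and the second most abundant in HIOP, just under Stat3.

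Cish, the founding member of the SOCS family, is a direct target of STAT5 in the mouse and dampens signalling at STAT5-activating receptors. Its level was 102 CPM in HIOP (1749 counts) and 4.72 CPM in CTL (76 counts). The ratio was 21.6 (17.2 to 27.6), and 96 genes had a higher one on the log2 scale.

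Socs2, known as the inhibitor of growth hormone signalling, was at 21.5 CPM in HIOP and 6.83 CPM in CTL, a ratio of 3.15 (2.54 to 3.93). Socs1, which blocks JAK kinases and limits interferon responses, had 82 counts in HIOP and 28 in CTL. Its ratio of 2.75 carried a wide interval (1.77 to 4.39) whose lower end is under 2-fold. The gap between Socs3 and Cish on the one side and Socs1 and Socs2 on the other was larger than these counting intervals.

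Among the transcription factors, Stat3, which carries signals of the interleukin-6 family, had the highest level of the 9 genes in every library. It stood at 573 CPM in HIOP (9807 counts) and 101 CPM in CTL (1627 counts), a ratio of 5.67 (5.38 to 5.98). Stat5a, which acts downstream of growth factor and hematopoietic cytokine receptors, was at 25.5 CPM in HIOP and 9.51 CPM in CTL, a ratio of 2.69 (2.23 to 3.25). Its close paralog Stat5b had 1309 counts in HIOP and 1527 in CTL, a ratio of 0.806 (0.748 to 0.868). The split of reads between these near-identical genes is uncertain. Stat2, which acts in the interferon-activated complex ISGF3, was at 85.2 CPM in HIOP and 49.0 CPM in CTL, a ratio of 1.74 (1.59 to 1.90), within 2-fold. Irf9, the DNA-binding subunit of ISGF3, was 6.33-fold higher (5.52 to 7.29).

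The kinases differed from each other. Jak3, which signals from receptors with the common gamma chain and is known mainly from blood cells, was at 55.1 CPM in HIOP and 6.15 CPM in CTL, a ratio of 8.96 (7.27 to 11.1). Jak2, which serves receptors for growth hormone, erythropoietin and many other cytokines, was at 94.5 CPM in HIOP and 69.7 CPM in CTL, a ratio of 1.36 (1.26 to 1.46). The other kinases of the family were near Jak2, with Jak1 at 1.3 (1.24 to 1.36) and Tyk2 at 0.989 (0.878 to 1.11).

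Marker lists of other cell types varied beside these genes. Of all genes compared, 9.0% were at least 2-fold higher in HIOP than in CTL and 8.04% were at least 2-fold lower. The 8 neutrophil markers summed to 142 CPM in HIOP and 1.18 CPM in CTL, with 6 of them at 0 in CTL and Mpo at 0 in both. The microglia and macrophage markers, 9 of 10 of them matched, summed to 62.3 CPM in HIOP and 40.9 CPM in CTL, where 3 of the 9 passed 2-fold upwards and 3 downwards, with a median log2 ratio of -0.11. The 9 lymphocyte markers held 63 counts in HIOP and 42 in CTL in all, with Ms4a1 and Cd79a at 0 in HIOP and Cd79a at 0 in CTL. The 4 red blood cell markers summed to 293 CPM in HIOP and 130 CPM in CTL, all at least 2-fold higher in HIOP. The 8 Müller glia markers summed to 1998 CPM in HIOP and 3149 CPM in CTL, where 1 marker passed 2-fold upwards and 4 passed it downwards. The part of these cells in the differences above and below was not tested, and in bulk tissue more cells of a type and more RNA per cell cannot be told apart.

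**Figure D2:**
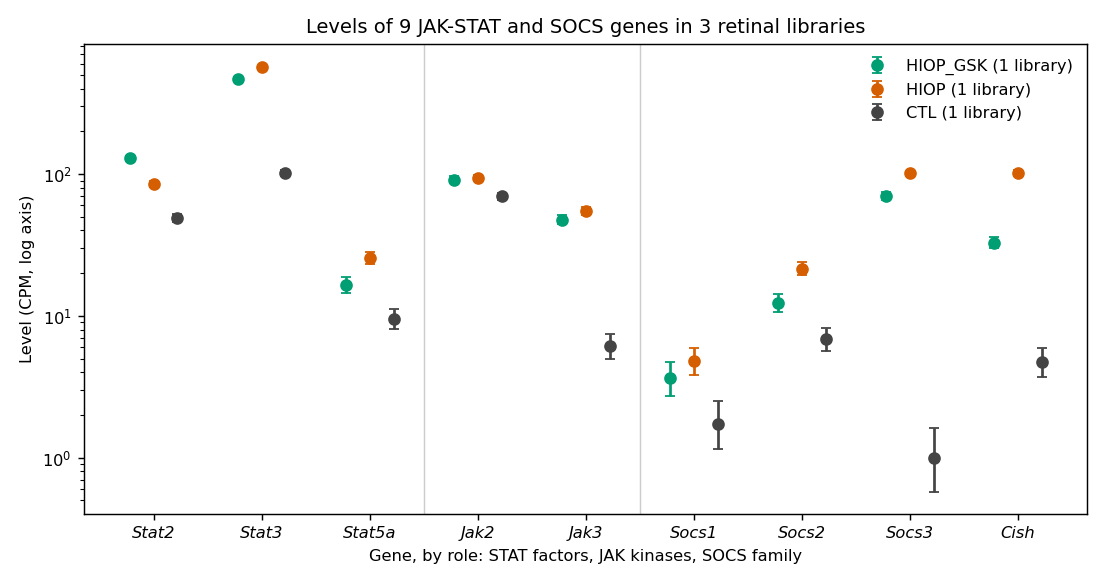
Levels of the 9 genes in CPM on a log axis, grouped as STAT factors, JAK kinases and SOCS family; each point is 1 library and bars are 95% counting intervals. CTL is the lowest of the 3 libraries for every gene, and Socs3 spans the widest range, with 70.1 CPM in HIOP_GSK, 101 CPM in HIOP and 0.994 CPM in CTL.

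Setting HIOP_GSK against HIOP shows how these genes stood in the injured retina when the drug had been given beforehand. The feedback inhibitor Cish was 3.12-fold lower in HIOP_GSK and was the 1 gene of the 9 that passed 2-fold, against 1.69% of all genes compared that were at least 2-fold lower. None of the 9 was at least 2-fold higher, against 4.56% of all genes. Of the 9 ratios, 8 were below 1, and that of Stat2 was above 1. The median log2 ratio of the 9 was -0.39, where that of all genes was -0.0024.

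Cish was at 32.8 CPM in HIOP_GSK (499 counts) and 102 CPM in HIOP (1749 counts), and the interval of the 3.12-fold difference was 2.82 to 3.45. A lower log2 ratio was seen in 82 of the 15543 genes. Its deposited TPM was 12.7 in HIOP_GSK, 41.3 in HIOP and 2.13 in CTL. Per length, Cish therefore ranked 6 of 9 in HIOP_GSK, 3 of 9 in HIOP and 6 of 9 in CTL. Beside Cish, the 4 red blood cell markers summed to 138 CPM in HIOP_GSK and 293 CPM in HIOP. Of the 4, 2 were at least 2-fold lower. The 8 Müller glia markers summed to 2517 CPM in HIOP_GSK and 1998 CPM in HIOP, with 3 of the 8 at least 2-fold higher. Of the 9 microglia and macrophage markers 7 were at least 2-fold higher, as were all 7 lens markers, and none of either list was lower. Of all genes compared, 1.69% were at least 2-fold lower and 4.56% higher. The part of these cells and tissues in the difference was not tested.

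The other inhibitors were lower by less. Socs2 was at 12.4 CPM in HIOP_GSK and 21.5 CPM in HIOP, or 1.74-fold lower (1.46 to 2.09). Socs3 was at 70.1 CPM in HIOP_GSK (1067 counts) and 101 CPM in HIOP (1728 counts), or 1.44-fold lower (1.33 to 1.56). For Socs1, with 55 counts in HIOP_GSK and 82 in HIOP, the ratio was 0.755 and its interval of 0.526 to 1.07 included 1, so a difference was not detectable at this depth. The ratio of Socs3 to Cish in deposited TPM was 7.55 in HIOP_GSK, 3.22 in HIOP and 0.380 in CTL.

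Stat2 was the only gene of the 9 with a ratio above 1, namely 1.52 (1.42 to 1.62). It was at 129 CPM in HIOP_GSK (1964 counts) and 85.2 CPM in HIOP (1458 counts). Irf9 had a ratio of 0.954 (0.887 to 1.03). Stat3 was at 469 CPM in HIOP_GSK and 573 CPM in HIOP, 1.22-fold lower (1.18 to 1.26). Stat5a was at 16.6 CPM in HIOP_GSK and 25.5 CPM in HIOP, 1.54-fold lower (1.32 to 1.81), and Stat5b had a ratio of 0.886 (0.816 to 0.962).

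The 2 kinases were close to their HIOP levels. Jak3 was at 47.6 CPM in HIOP_GSK and 55.1 CPM in HIOP, a ratio of 0.864 (0.783 to 0.953). Jak2 was at 91.5 CPM in HIOP_GSK and 94.5 CPM in HIOP, a ratio of 0.968 (0.900 to 1.04). Beside Jak3, the neutrophil markers summed to 157 CPM in HIOP_GSK and 142 CPM in HIOP, and the microglia and macrophage markers to 150.0 CPM in HIOP_GSK and 62.3 CPM in HIOP.

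Set against CTL, the HIOP_GSK library had 6 of the 9 genes past 2-fold upwards, against 10.4% of all genes, and none past 2-fold downwards, against 6.32%. The comparison shares HIOP_GSK with the one above and CTL with the first, so the 3 sets of ratios are not independent. Socs3 was 70.5-fold (43.2 to 124), Jak3 7.74-fold (6.26 to 9.64), Cish 6.95-fold (5.45 to 8.96) and Stat3 4.64-fold (4.4 to 4.9) higher in HIOP_GSK than in CTL. Stat2, within 2-fold in HIOP, was 2.63-fold higher in HIOP_GSK than in CTL (2.42 to 2.86). Socs2, at 1.81-fold (1.42 to 2.31), and Stat5a, at 1.74-fold (1.42 to 2.14), were within 2-fold of CTL in HIOP_GSK and past it in HIOP. Both intervals include 2, and the ratio of the deposited TPM values of Socs2 was 2.11. Socs1 was 2.08-fold higher (1.3 to 3.4), and its log2 ratio of 1.0 lay on the 2-fold limit, falling under it with the deposited TPM (0.94) and with a larger prior count (0.84).

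**Figure D3:**
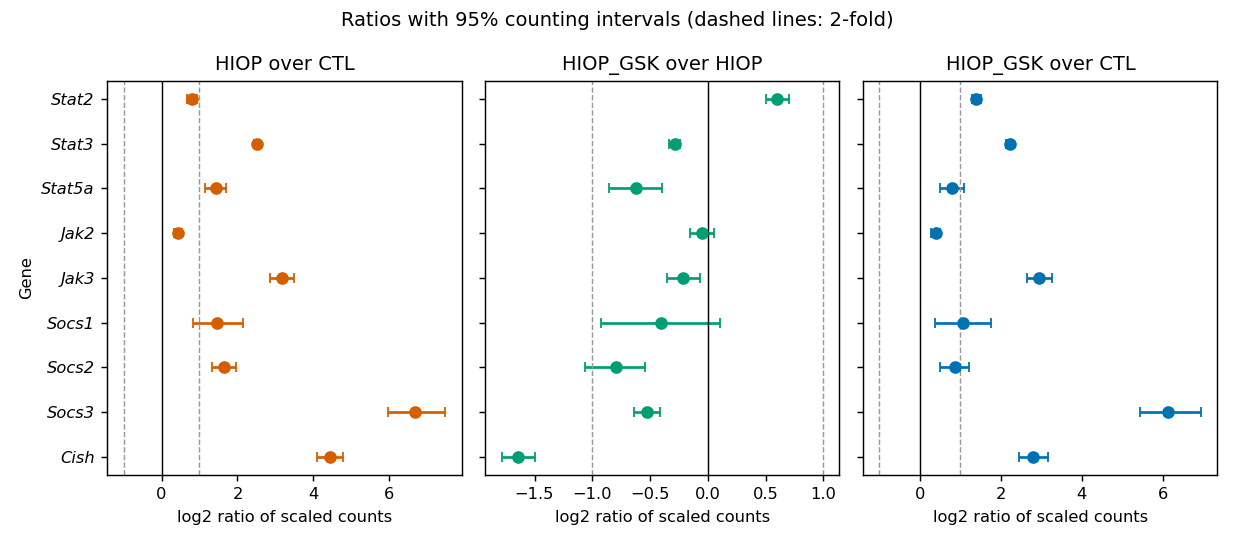
Log2 ratios of scaled counts for the 9 genes in 3 comparisons, with 95% counting intervals as bars, a solid line at no difference and dashed lines at 2-fold. Socs3 and Cish lie farthest right for HIOP over CTL, Cish alone lies left of the lower 2-fold line for HIOP_GSK over HIOP, and Stat2 alone lies to the right of 0 there.

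The wider pathway was described with 10 lists holding 116 other genes, some of them in more than 1 list. By symbol, 114 were matched, and 92 passed the filter on low counts. A gene silent in CTL could pass that filter only through an injured library. The counts below therefore describe these libraries and are no support for a direction. As a yardstick for them, 9.0% of the 15543 compared genes passed 2-fold upwards and 8.04% downwards for HIOP over CTL. These shares were 4.56% and 1.69% for HIOP_GSK over HIOP, and 10.4% and 6.32% for HIOP_GSK over CTL. With the limit at 1.5-fold, HIOP_GSK over HIOP had 1504 of the 15543 past it upwards and 749 downwards. Of 5 other JAK and STAT genes, 4 were kept, and all of these were within 2-fold in HIOP over CTL, with a list median log2 ratio of 0.18. Stat6, which carries interleukin-4 signals, had a ratio of 1.68 (1.44 to 1.96). None of the 4 was 2-fold different between HIOP_GSK and HIOP. Stat4 was not analysed here.

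Upstream of the STATs, cytokines that signal through gp130 were counted first. Among 8 such genes, the 5 that passed 2-fold upwards in HIOP over CTL were Il6, Osm, Lif, Clcf1 and Il11, and none passed 2-fold downwards, with a median log2 ratio of 4.39. Il6, with 140 counts in HIOP and 0 in CTL, was at least 43.9-fold higher, and Osm, with 97 counts in HIOP and 0 in CTL, at least 30.4-fold higher, both computed with 3 counts as the floor of the CTL library. Setting these genes at their bounds left the median at 4.39. Lif, which activates STAT3 in Müller glia of injured mouse retina, was 36.4-fold higher (22.2 to 64.0). In HIOP_GSK, Il6 was 5.93-fold (3.73 to 9.87), Osm 5.07-fold (3.01 to 9.06) and Lif 2.10-fold lower than in HIOP (1.81 to 2.44), while Clcf1 had a ratio of 1.0 (0.908 to 1.1) and Il11 one of 1.18 (0.93 to 1.5).

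Of 8 genes for gp130 and related receptors, Osmr, Csf3r, Il6r and Il6st were at least 2-fold higher in HIOP than in CTL. Osmr, the oncostatin M receptor chain, was 24.3-fold (18.9 to 31.7), Csf3r, the granulocyte growth factor receptor of neutrophils, 22.6-fold (13.5 to 40.7), and Il6st, which encodes gp130 itself, 2.34-fold higher (2.24 to 2.45). In HIOP_GSK over HIOP, the ratio was 2.92 for Csf3r (2.58 to 3.3) and 0.709 for Osmr (0.655 to 0.767).

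Receptors that use JAK3 and those that use JAK2 with STAT5 were mostly rare. Of 13 JAK3-linked genes 7 were kept, of which 4 passed 2-fold upwards in HIOP over CTL and none downwards (median log2 ratio 1.35, also with Il2ra at its bound). Il2rg, the common gamma chain that binds JAK3, had 41 counts in HIOP_GSK, 46 in HIOP and 2 in CTL, and Il7r, the interleukin-7 receptor, had 22, 22 and 2 counts in the same order of libraries. Il2ra had 20 counts in HIOP and 0 in CTL, and Il4r was 2.56-fold higher in HIOP (2.29 to 2.88). Il21r, the interleukin-21 receptor, with 25 counts in HIOP_GSK against 8 in HIOP, had a ratio of 3.52 (1.54 to 9.02). Il15, also in this list, had the lowest log2 ratio of the kept genes in HIOP_GSK over HIOP, at -0.69. In HIOP_GSK over CTL, 5 of the 7 kept genes were at least 2-fold higher and 1 was at least 2-fold lower.

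In the list of receptors and ligands tied to JAK2 and STAT5, 5 of 14 genes were kept and 2 of them passed 2-fold upwards in HIOP over CTL. Csf2rb, the common beta chain of receptors that activate STAT5, had 596 counts in HIOP and 12 in CTL, 46.7-fold higher (26.5 to 90.9), and its ratio in HIOP_GSK over HIOP was 1.29 (1.16 to 1.45). The ligand gene Csf2 had 3 counts in HIOP_GSK, 18 in HIOP and 0 in CTL, and Csf2ra, its specific receptor chain, had 202, 115 and 74 counts in the same order. Epo, Prl, Gh1 and Thpo had no count in any of the 3 libraries, and Epor had 7, 14 and 6 counts.

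Interferon signalling, in which Stat2 acts, was represented by receptors and by targets. Of 9 interferon and interleukin-10 receptor and ligand genes, 6 were kept and 4 were at least 2-fold higher in HIOP than in CTL, namely Il10ra, Il10rb, Ifnar2 and Ifngr2. The interferon genes Ifnb1 and Ifng had no count in any of the 3 libraries, which at a floor of 3 counts allows up to 0.197 CPM in HIOP_GSK, 0.175 CPM in HIOP and 0.186 CPM in CTL. All 15 genes in the list of Irf9 and interferon targets passed 2-fold upwards in HIOP over CTL, with a median log2 ratio of 3.36, the lowest at 1.89 and the highest, Cxcl10, at 6.92. In HIOP_GSK over HIOP the list had a median of -0.44, with Cxcl10 past 2-fold downwards and none upwards, while at 1.5-fold 7 were lower and 1 was higher. Its members stood on both sides there, as Usp18, a brake on interferon receptor signalling, had a ratio of 1.42 (1.20 to 1.69), while Ifit3 was 1.67-fold (1.51 to 1.85) and Ifi44 1.94-fold lower (1.68 to 2.24).

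Targets of STAT3 and of STAT5 were counted in separate lists. Of 24 listed STAT3 targets 19 were kept, of which 15 passed 2-fold upwards in HIOP over CTL and none downwards (median log2 ratio 2.71). The leading ones were the transcription factor genes Myc at 41.7-fold (26.5 to 69.6) and Bcl3 at 40.9-fold (26.3 to 67.3), and Timp1, an inhibitor of matrix proteases, at 36.8-fold (29.2 to 47.0). In HIOP_GSK over HIOP the median was -0.26, with Icam1 and Junb at least 2-fold lower and Gfap at least 2-fold higher, while at 1.5-fold 5 were lower and 2 higher. Gfap, a STAT3 target in astrocytes and Müller glia, had 2470 counts in HIOP_GSK, 642 in HIOP and 580 in CTL, a pattern that differed from that of Socs3 and of Stat3 itself.

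Of the 10 listed STAT5 targets other than Cish and Socs2, Osm, Gadd45g, Id1, Pim1 and Ccnd1 were at least 2-fold higher in HIOP than in CTL and Igf1 was at least 2-fold lower (median log2 ratio 1.28). Pim1, Ccnd1 and Osm also belong to other lists here. In HIOP_GSK over HIOP, Osm was the 1 gene past 2-fold, and the median of the list was -0.06. Id1 had a log2 ratio of -0.77 there, while Bcl6, a repressor often opposed to STAT5, had a ratio of 1.62 (1.47 to 1.80). At 1.5-fold, 2 genes of the list were lower and 2 higher in HIOP_GSK than in HIOP.

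Other inhibitors of the pathway were mostly within 2-fold of CTL. Of 16 such genes, 4 passed 2-fold upwards in HIOP over CTL and none downwards (median log2 ratio 0.32), and none of the 16 did so in either direction in HIOP_GSK over HIOP. The 4 were Ptprc, the leukocyte phosphatase CD45, at 9.40-fold (6.84 to 13.2), Usp18 at 6.11-fold (4.33 to 8.84), Ptpn1 at 3.26-fold (2.94 to 3.62) and Ptpn6, a phosphatase of blood cells, at 3.15-fold (2.23 to 4.54). The remaining SOCS family genes were all within 2-fold, with ratios in HIOP over CTL of 1.32 for Socs4, 1.42 for Socs5, 1.19 for Socs6 and 0.964 for Socs7.

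**Figure D4:**
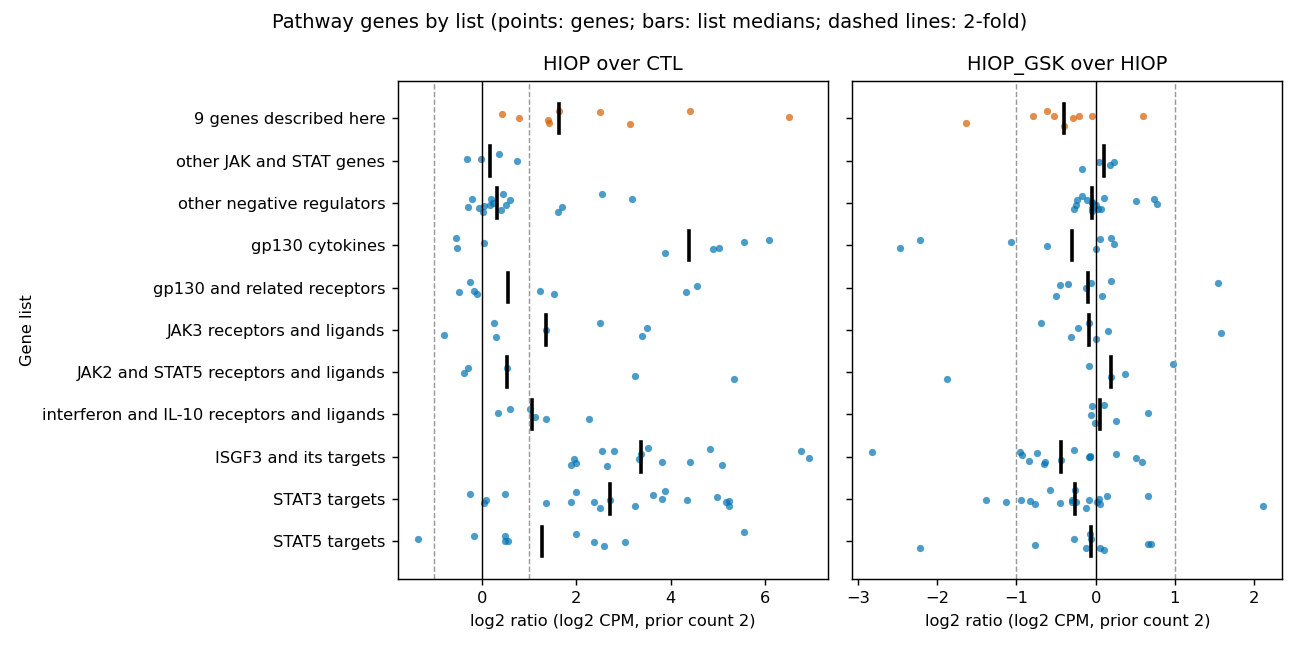
Log2 ratios of the 9 genes (orange) and of 10 lists of pathway genes (blue), with HIOP over CTL on the left and HIOP_GSK over HIOP on the right; each point is a gene that passed the filter, black bars are list medians and dashed lines mark 2-fold. All points of the list labelled ISGF3 and its targets, which leaves out Stat2, lie right of the 2-fold line on the left. On the right, Il6, Osm and Cxcl10 lie farthest left.

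The genes with the most similar pair of log2 ratios (HIOP over CTL and HIOP_GSK over HIOP) were looked up among 11625 named genes with at least 5 CPM in 1 library. Likeness was the Euclidean distance in these 2 ratios, which come from 3 libraries and share HIOP. Closest to Cish were the adhesion gene Icam1 at a distance of 0.26, Angptl4, a lipase inhibitor, at 0.47 and Ptges, a prostaglandin E synthase, at 0.56. Closest to Socs3 were the chemokine gene Ccl3 at 0.42, Plaur, the urokinase receptor gene, at 0.42 and the interferon-induced Gbp2 at 0.48. In CTL, Ccl3 had 3 counts, Plaur 1 and Gbp2 49. With Ccl3 and Plaur at or under the floor of 3 counts there, their ratios and distances depend on the prior count. The log2 ratio of Socs3 itself ranged from 5.98 to 6.67 over the processing alternatives described below. Socs1 and Socs2, with moderate ratios, had much closer neighbours, namely Nabp1, Slc25a37 and Rad9b within 0.034 of Socs1 and Igsf3, Glis3 and Pawr within 0.085 of Socs2. For scale, 913 genes had a higher ratio than Socs1 in HIOP over CTL and 27 had one higher than Socs3.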

How the data were processed

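Directional libraries from retina depleted of ribosomal RNA, prepared from 3 µg of RNA per sample, were analysed, 1 per group. Each deposited table holds a whole-number count and a TPM value per gene. The submitters' processing notes name the build Rnor_6.0, RSEM 1.3.1 and STAR 2.5.4b without saying what each did. The deposited counts are raw, and the deposited TPM values sum to 1e+06 per library. Whether counting used strand is unknown from the sources used here, and overlapping genes are uncertain.

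Scaling used edgeR 4.0.16 in R 4.3.3, with TMM factors of 1.006 for HIOP_GSK, 0.994 for HIOP and 1.0004 for CTL. Genes with at least 1 CPM in at least 1 library were kept. Calls were made at 2-fold in log2 CPM with a prior count of 2. Printed folds divide scaled counts with no prior added and carry exact Clopper-Pearson intervals (levels: exact Poisson) at 95%. PCR copies cannot be told from separate molecules, so these and the floor of 3 counts cover counting error only. The functions were tested on simulated data. No test across libraries was possible.

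The members and lists were chosen with earlier results of these data known, and 1 further gene of the pathway is not reported here. Of each list, up to 3 genes with the largest absolute log2 ratio in HIOP over CTL and up to 2 in HIOP_GSK over HIOP were named. Irf9, Clcf1, Il11, Il6st, Il4r, Ifngr2, Junb, Pim1, Ccnd1, Igf1, Bcl6, Epor, the other Socs genes and genes without counts were named after their values were seen. Promoter windows came from RefSeq (GRCr8), a different build from that of the counts, and were matched by symbol.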

Additional observations from a re-analysis of the deposited data

How the results depend on the processing

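Under 9 alternatives (total counts, DESeq2 1.42.0 size factors, deposited TPM with a pseudocount of 0.5, scaling without mitochondrial and the 20 most abundant genes, prior counts of 0.5 and 10, a 1.5-fold limit, no filter, and one at 5 CPM), the first 6 of which alter the log2 ratios, no ratio of the 9 genes changed sign. Of 162 such ratios, 11 left the counting interval, each with the deposited TPM. At the 1.5-fold limit 1 of the 9 genes was higher and 3 were lower in HIOP_GSK than in HIOP. Of the 15543 genes compared, 1504 were higher and 749 lower at that limit. For HIOP over CTL, 6 of the 9 were at least 2-fold higher with the filter at 5 CPM (997 of all genes), and 8 passed 1.5-fold. For HIOP_GSK over CTL, 5 of the 9 were at least 2-fold higher with the deposited TPM (1274 of all genes). The same number was found with the filter at 5 CPM (1055) and with a prior count of 10 (1397), and 8 passed 1.5-fold. Totals over all genes moved with the filter and the limit. Without the filter, 2113 genes were lower in HIOP than in CTL, 1448 were higher and 711 lower in HIOP_GSK than in HIOP, and 2534 were higher and 1826 lower in HIOP_GSK than in CTL. With the filter at 5 CPM, these 5 totals were 773, 336, 114, 1055 and 594. With a prior count of 10, 153 genes were lower in HIOP_GSK than in HIOP. At 1.5-fold, 2508 were higher and 2733 lower in HIOP than in CTL, 1504 higher and 749 lower in HIOP_GSK than in HIOP, and 2739 higher and 2585 lower in HIOP_GSK than in CTL. Of 540 counts over the lists, 33 differed by over 1.5 times. No paired analysis was possible because each group has 1 library. Depth limited Socs1, with 28 to 82 counts per library, and Socs3 in CTL, with 16.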

Other observations

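Il10, the anti-inflammatory cytokine gene whose receptor activates STAT3, had 9 counts in HIOP_GSK and 0 in both HIOP and CTL. It was below the filter on low counts, so it entered the totals past 2-fold above only where no filter was used.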
